A study of Rattus norvegicus with 49 samples.

Results

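The cytosolic ribosomal protein genes were taken as all genes whose symbol in the platform annotation starts with Rplp, or with Rpl or Rps and a digit, leaving out the Rps6k kinases and pseudogenes. Of 43 genes with such a symbol, 39 were measured above the signal filter, 28 with symbols of the large subunit (Rpl and Rplp) and 11 with symbols of the small subunit (Rps), among 8093 genes tested in all. The filter asked for a signal of at least 100 on 5 or more arrays, and each gene was represented by its brightest probe set. Rpl30, Rpl3l, Rps27l and Rps4y2 stayed under it, with highest signals of 88.2, 57.5, 110.5 and 99.2. The dimmest of the 39 was Rpl39, whose signal ran from 277.0 to 507.2, and all 39 genes reached 100 on all 49 arrays. Low signal at a given age therefore removed none of these 39 genes.

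RNA came from hippocampal CA1 of Fisher 344 rats, dissected tissue that holds neurons, glia, vessels and blood cells. Each of the 49 animals had its own Affymetrix RAE 230A array. Ages 3, 6, 9 and 12 months had 9 animals each, and 13 animals were 23 months old. The labels name no genotype and no drug treatment, and every animal had gone through water maze sessions before the tissue was taken, so no untrained group stands beside them. For the oldest group the series' text names 25 months in 1 place, and the 23 months of the sample labels was used. Signal of transthyretin (Ttr), a gene of the choroid plexus, was high on 5 arrays, unevenly between the ages. They were 4 of the 9 arrays of 3 months (replicates 4, 6, 7 and 8, with signals of 3908 to 12003) and 1 of the 13 of 23 months (replicate 11, 16310). Leaving them out leaves 5 young and 12 old animals. The haemoglobin gene Hbb set 2 arrays of 23 months apart (replicates 5 and 8).

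A ribosome joins a small subunit, which reads the messenger RNA, to a large subunit, which forms the peptide bond and holds the exit tunnel of the new protein. Each subunit is ribosomal RNA wrapped in proteins that are needed in equal numbers, and their messenger RNAs are among the most abundant of any cell. In mammals these messenger RNAs mostly begin with a C followed by a run of pyrimidines, the 5′ terminal oligopyrimidine motif, through which the TOR kinase pathway controls their translation. Neurons also keep these messenger RNAs in dendrites and axons, where proteins are made close to synapses.

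The start sequences of the genes with the most to report are shown because that motif is what this family shares apart from its function. They were read from the RefSeq promoter table of assembly GRCr8, which held 35 of the 39 genes (Rpl7, Rpl27, Rps29 and Rpl23a were not matched). Each line gives the 20 bases before the annotated start and the first 10 bases of the transcript, on the gene's own strand, 5′ to 3′. Capitals mark the run nearest the start of a C followed by at least 4 bases that are C or T.
Rpl34, chr2:221962274-221962303, minus strand: gcccgccccttccttttcctCTTCCgggga
Rps3a, chr2:173827033-173827062, minus strand: cgcgcgagttgtacttccgcCCTTTTggct
Rpl19, chr10:83519044-83519073, plus strand: gagcccgcgaccagcaagctCTTTCCTTTC
Rps15, chr7:10068106-10068135, minus strand: gcagccgctgacaccgcttcCTTTTCCCag
Rplp0, chr12:46718381-46718410, minus strand: ctggtgaccgcaccgcacttCTCTCgccag
Rpl12, chr3:36661920-36661949, plus strand: tgggcggagcaacatccgtCTTTTCggctt
Rps24, chr16:96497-96526, plus strand: ggcagtgagcggtcctcttttCCTCCTTTa
Rpl11, chr5:153560793-153560822, minus strand: gcccaggggacttgaagcttgtttggtgct
Rps3, chr1:163195767-163195796, minus strand: ttcctttcctttcagcggcgcgcggcagca
In Rpl34, Rps3a, Rpl19, Rps15 and Rplp0 the run begins at the annotated first base. In Rpl12 it begins 1 base before that base and in Rps24 1 base after it. The run was counted from the C nearest the start, and in each of these genes a C or T also stands directly before the capitals. In Rpl11 and Rps3 no such run begins within 10 bases of the annotated start, although an earlier run of Rps3 reaches into that window.

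The run began exactly at the annotated start in 11 of the 35 genes (31.4%), against 881 of the 33469 starts of the whole table (2.63%). It began within 10 bases of the start, on the transcribed strand, in 25 of 35 genes (71.4%), against 28.9% of all starts. No match in a window says only that no such run begins there, since an annotated start can lie several bases from the main one.

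In the old animals nearly the whole family stood slightly above its level in the young ones. At 23 against 3 months, 38 of 39 genes had the higher mean, by a median of 0.099 on the log2 scale or 1.07-fold, with single genes between −0.067 and 0.16. Rpl34, a protein of the large subunit, was the 1 gene to rise past the threshold, an adjusted p under 0.05 in limma over all 8093 genes. By the same call 264 genes of the array differed (3.26%), of which 195 were higher (2.41%) and 69 lower (0.853%). At an unadjusted p under 0.05, 21 of the 39 genes were higher and 0 lower, where 8.19% of all genes were higher. These genes share arrays and tend to vary together from animal to animal, so the counts do not rest on 39 separate observations.

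Each array was scaled to a common target, which holds the balance over all genes close to 0, so these differences are relative to the rest of the array. Over all genes the median difference was 0.00082 and 50.4% were higher at 23 months. Of the 39 genes, 37 lie among the brightest 10% of the genes tested. The other 772 of these bright genes had a median difference of −0.0017, and 49.0% of them were higher. In RNA from whole tissue, a change in the share of a cell type and a change in RNA per cell cannot be told apart.

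**Figure D1:**
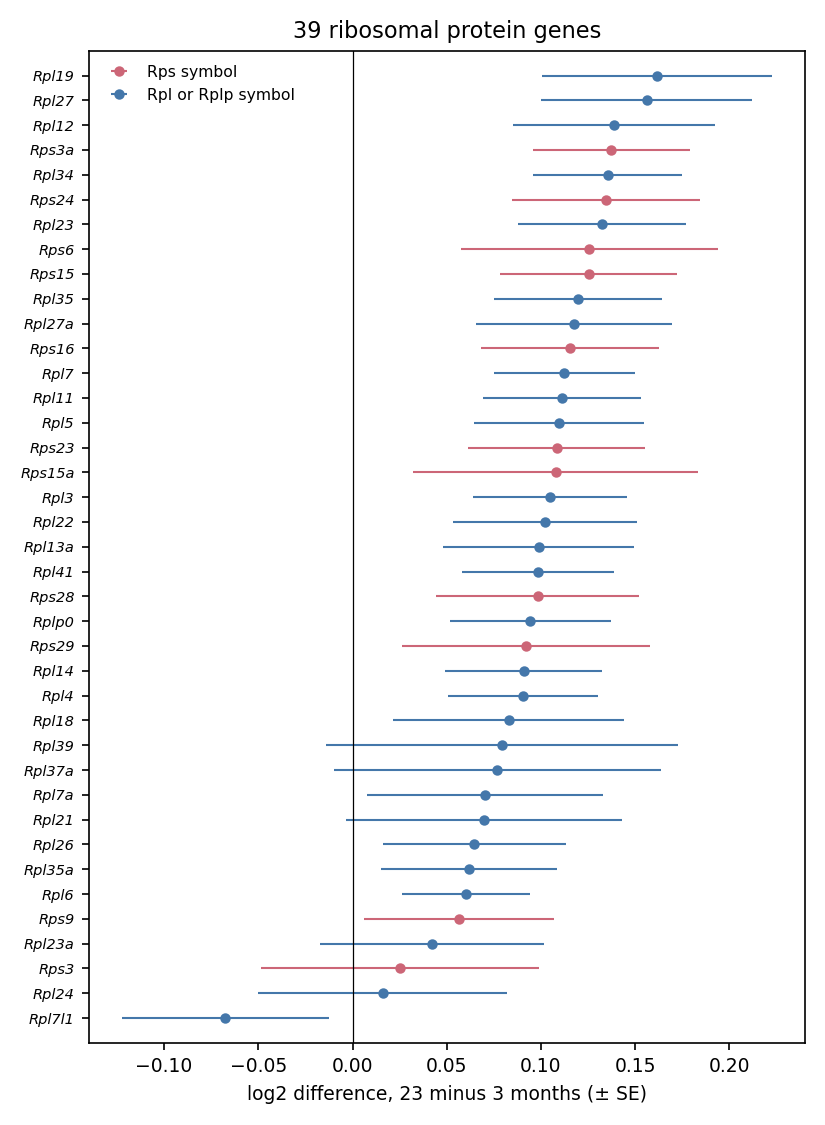
Log2 difference between 23 and 3 months (horizontal axis, 13 against 9 animals) for each of the 39 ribosomal protein genes, with bars for the standard error of the limma fit and colour for the kind of symbol (Rps for the small subunit, Rpl or Rplp for the large). Rpl7l1 is the only gene left of 0, at −0.067, and Rpl19 is farthest right, at 0.16.

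Both subunits showed the difference. Among the 28 genes with large subunit symbols 27 were higher at 23 months, with a median of 0.096, and among the small subunit genes 11 of 11, with a median of 0.11. Rps24, Rpl5, Rpl11, Rpl26 and Rpl35a are part of the ribosomal genes in which inherited mutations can cause Diamond-Blackfan anaemia, a failure of red cell production. Of these, 5 of 5 had the higher mean and 3 of 5 an unadjusted p under 0.05, close to the shares of the whole family (38 and 21 of 39), and none passed the adjusted threshold. The only lower gene, Rpl7l1, is a paralog of Rpl7 and the only 1 of the 39 that is not a core subunit of the ribosome.

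Rpl34 had signals from 5901.4 to 7076.8 at 3 months with a median of 6094.7, and from 5977.0 to 7506.6 at 23 months with a median of 7050.1. The ages overlapped, but 12 of the 13 old animals lay above the mean of the young and 6 lay above all of them. The means ± SD were 6304 ± 398 (n = 9) at 3 months, 6612 ± 302 at 6, 6552 ± 343 at 9, 6873 ± 465 at 12 and 6928 ± 476 (n = 13) at 23 months. The log2 difference between the oldest and youngest was 0.14 (SE 0.039, 1.10-fold, limma adjusted p = 0.039). This call rested on the setting. It was lost with quantile normalization (limma adjusted p = 0.177), median centring (0.132), the degradation ratios as covariates (0.126), the 2 ages fitted alone (0.105), and without the arrays of high haemoglobin (0.064) or transthyretin (0.061). It was also lost without a variance trend (0.056) and in 13 of the fits that left out 1 array (up to 0.087).

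Rps3a, a small subunit protein near the messenger exit, came next in order of p. Its signal ran from 6770.6 to 8357.6 at 3 months around a median of 6971.2, and from 7061.2 to 8737.6 at 23 months around a median of 7830.4. Again 12 of 13 old animals lay above the young mean, and the young animal at 8357.6 (replicate 4) exceeded 11 of them. Its mean was higher at each later age, from 7122 ± 488 (SD, n = 9) through 7201 ± 405, 7283 ± 583 and 7457 ± 409 to 7833 ± 493 (SD, n = 13). The log2 difference of 0.14 (SE 0.042) had a limma adjusted p of 0.054 and did not pass.

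Rpl7, of the large subunit, had a median signal of 6322.0 at 3 months (5750.1 to 6632.1) and of 6874.3 at 23 months (6005.5 to 7641.5), and 8 old animals lay above all young ones. The difference of 0.11 (SE 0.037) had an adjusted p of 0.085. A second probe set of Rpl7, at a mean signal of 156, was also higher, by 0.22 with a standard error of 0.16 (adjusted p = 0.554).

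Rps24 had medians of 6086.4 at 3 months (5796.8 to 7252.3) and 6641.3 at 23 months (5812.5 to 8792.0). The groups overlapped, 4 old animals lay above all young ones, and the old group had an SD of 866 against 472. The difference was 0.13 (SE 0.050, adjusted p = 0.143), and between 12 and 23 months it was also 0.13, since the mean of 6243 at 12 months was close to the 6221 at 3 months.

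Rpl27 and Rpl19, both of the large subunit, had the largest differences of the family, 0.16 each, and neither passed. Rpl27 went from a median of 4606.3 (4112.1 to 5049.0) to 5153.7 (4505.4 to 6714.2), with 9 of 13 old animals above the young mean and 7 above every young animal (adjusted p = 0.120). Rpl19 went from 8679.3 (8308.2 to 10970.5) to 10116.9 (8048.6 to 12952.8), and its old group held both the lowest and the highest of these 22 animals (adjusted p = 0.151). Its lowest old animal was replicate 11 and its highest replicate 5.

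**Figure D2:**
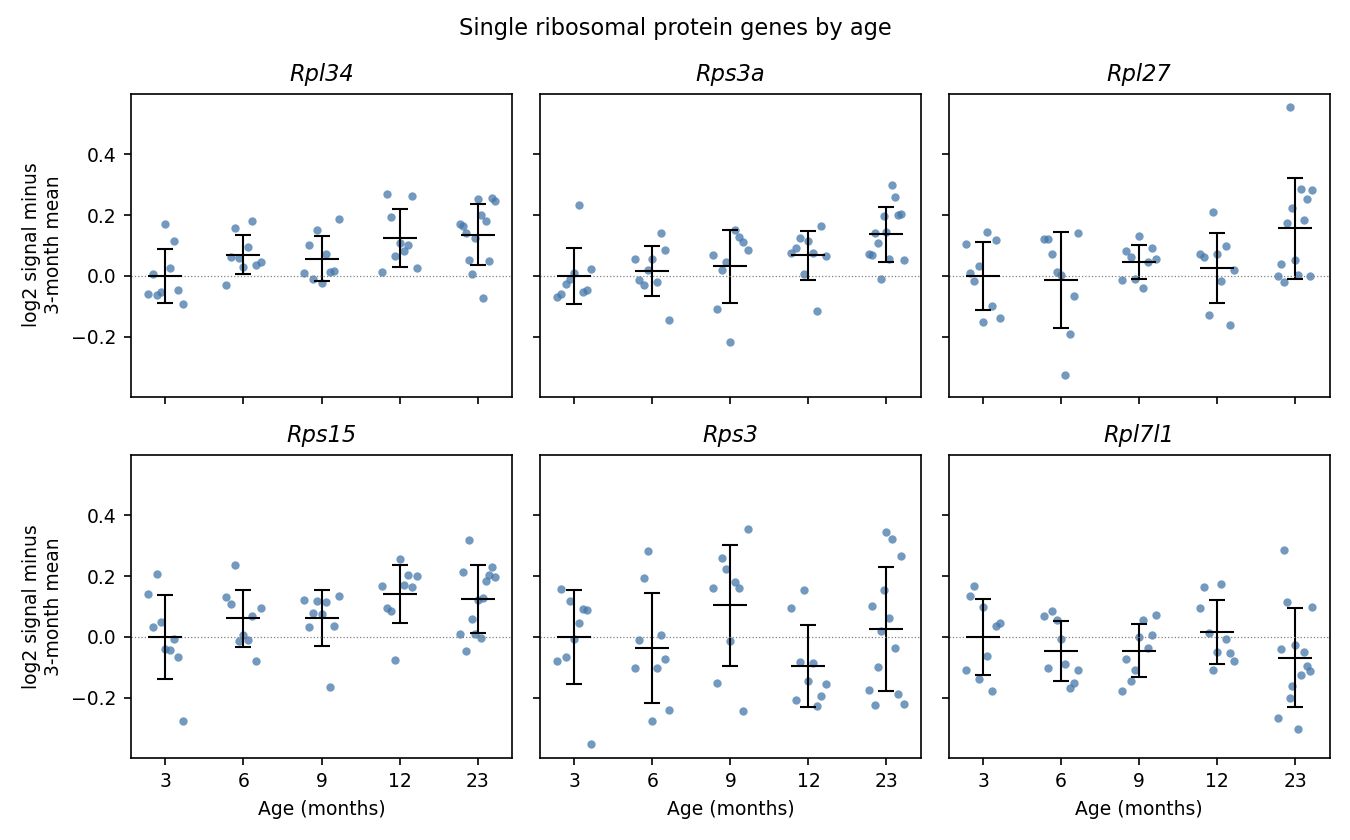
Signal of Rpl34, Rps3a, Rpl27, Rps15, Rps3 and Rpl7l1 in each animal (points), as log2 minus the gene's mean at 3 months, by age in months, with the mean and SD of each age. In each panel the 23-month animals overlap the 3-month animals. The 23-month mean is the highest of the 5 ages for Rpl34, Rps3a and Rpl27. The highest mean falls at 12 months for Rps15 and Rpl7l1 and at 9 months for Rps3, and the 23-month mean of Rpl7l1 is its lowest.

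Rpl12, at the base of the stalk that calls elongation factors to the ribosome, had a median signal of 5720.5 at 3 months (5040.2 to 6903.4) and of 6370.1 at 23 months (5241.4 to 7013.5). Of the old animals, 10 of 13 were above the young mean and 3 above the highest young animal, and the difference of 0.14 (SE 0.054) had an adjusted p of 0.164. Rplp0, the protein that anchors the stalk and a common reference gene in expression assays, went from a median of 4775.0 (4369.2 to 4957.5) to 4866.8 (4352.2 to 5991.7). Its difference was 0.094 (SE 0.043, adjusted p = 0.271), with 6 old animals above all young ones and 1 below them. The other 2 stalk proteins are not among the genes with a probe set of 1 symbol.

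Rpl5 and Rpl11 bind the 5S ribosomal RNA together and, when free of the ribosome, block Mdm2, the ligase that removes p53. Rpl5 had a median of 6798.3 at 3 months (6305.3 to 8096.9) and 7814.5 at 23 months (6035.7 to 8373.7), and Rpl11 had 4983.9 (4338.5 to 5221.3) and 5265.5 (4815.3 to 6053.5). Rpl11 was above the young mean in 12 of 13 old animals and Rpl5 in 10. Both differed by 0.11, with adjusted p-values of 0.206 and 0.151, so neither passed. At 12 months Rpl11 already stood 0.11 above 3 months and Rpl5 0.060.

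Among small subunit genes, Rps15 had a higher mean at each later age than at 3 months, by 0.061 at 6 and at 9 months. Its median was 5433.1 at 3 months (4502.5 to 6299.4), 6119.1 at 12 months (5176.0 to 6512.5) and 5954.6 at 23 months (5287.6 to 6810.4). The ranges overlapped throughout, with 8 of 9 animals of 12 months and 11 of 13 of 23 months above the young mean. Its difference was 0.14 at 12 months (adjusted p = 0.390), the largest of the family there, and 0.13 at 23 months (adjusted p = 0.149).

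Rps16, whose tail reaches the transfer RNA on the small subunit, had a median of 9884.9 at 3 months (9401.7 to 11105.8) and 11001.9 at 23 months (9128.0 to 12593.3). It was 0.092 higher at 6 months, the largest difference of the family at that age, and 0.12 higher at 23 months (adjusted p = 0.201), with 11 of 13 old animals above the young mean. Rps6, the protein that S6 kinases phosphorylate, had medians of 8722.1 (7347.2 to 10151.8) and 9806.8 (7745.6 to 11879.0). Its difference of 0.13 had a standard error of 0.068 and an adjusted p of 0.404. Rpl22, an RNA-binding protein of the large subunit, was 0.10 higher (adjusted p = 0.311), from a median of 4451.7 (3995.6 to 5093.8) to 4795.4 (4116.8 to 5801.3).

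A few genes stood apart from the family by their differences, none of which passed. Rpl7l1 had a median of 734.0 at 3 months (632.3 to 803.1) and 669.4 at 23 months (579.6 to 871.2), and only 3 of 13 old animals were above the young mean. Its difference was −0.067 (SE 0.055, adjusted p = 0.629), and its second probe set gave −0.096 (adjusted p = 0.581). Against 12 months it was −0.084, the lowest of the family.

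Rps3, which sits where the messenger enters the small subunit, varied widely within ages. Its median was 6479.0 at 3 months (4915.7 to 6997.3), 7017.0 at 9 months (5304.9 to 8022.7), 5674.5 at 12 months (5358.5 to 6992.0) and 6354.6 at 23 months (5371.9 to 7981.1). It had the largest difference of the family at 9 months, 0.10, and the lowest at 12 months, −0.094, and none of these passed (adjusted p = 0.932 at 23 months). Rpl24, which reaches from the large to the small subunit, differed by 0.016 (adjusted p = 0.957), with medians of 2495.7 (1775.9 to 2915.5) and 2428.2 (2058.1 to 2908.2).

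The differences of Rps3 and Rpl24 at 23 months changed sign when certain single arrays were left out, so neither has a settled direction. Rpl23a, at the mouth of the exit tunnel, differed by 0.042 (adjusted p = 0.826), from a median of 4867.7 (4344.7 to 6107.4) to 4920.7 (4445.3 to 6356.1). Rpl37a differed by 0.077 with a standard error of 0.087, and its signal spread from 12009.0 to 21134.3 in the old animals against 14695.9 to 18493.0 in the young. It had the lowest difference of the family at 9 months, −0.071, where replicate 3 lay at 9752.4. Rps9 had the lowest at 6 months, −0.057, and was 0.057 higher at 23 months (adjusted p = 0.672).

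No ribosomal protein gene separated the ages. The animals of 3 and 23 months overlapped for all 39 genes, while 32 of 8093 genes (0.395%) had no overlap. Of the 13 old animals, between 3 and 12 were above the young mean of a gene, with a median of 10, and for 11 genes at least 11 of them were.

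Against 3 months, the median difference was close to 0 at 6 months and largest at 23 months. At 6 months 21 of 39 genes were above 3 months with a median difference of 0.0040, at 9 months 32 with 0.016, at 12 months 30 with 0.047 and at 23 months 38 with 0.099. These comparisons share the 9 animals of 3 months. None of the 39 genes passed at 6, 9 or 12 months, where 0.0124%, 0.0371% and 0.222% of all genes did, and 0, 0 and 4 were higher at an unadjusted p under 0.05, against 141, 134 and 369 of all 8093 genes. The values at 6 and 9 months rested on single arrays. Leaving out 1 array moved the median at 6 months between −0.0072 (without 3 months replicate 3) and 0.024 (without 6 months replicate 3), with 17 to 30 genes higher. It moved the median at 9 months between 0.013 (without 9 months replicate 6) and 0.038 (without 3 months replicate 2), with 26 to 33 higher. The 9-month median exceeded 1.5 times its value without any 1 of 3 months replicates 1, 2 and 4 and 9 months replicates 5 and 7 (0.025 to 0.038). At 6 months it turned negative without any 1 of 3 months replicates 3 and 8 and 6 months replicate 2. Without the 5 arrays of high transthyretin the medians at 6, 9 and 12 months were 0.00078, 0.0066 and 0.031, with 20, 21 and 30 genes higher.

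Between 12 and 23 months 35 of 39 genes were higher, by a median of 0.053, and none passed in limma (0.358% of all genes did). There 4 genes were higher (10.3%) and 0 lower at an unadjusted p under 0.05, where 383 of all 8093 genes were higher and 282 lower. Rpl7 led these 4 with 0.11 (adjusted p = 0.349), and the largest difference was that of Rpl27, at 0.13. The other genes among the brightest 10% had a median of −0.013 in that comparison.

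The highest of the 5 age means fell at 23 months for 33 genes, at 12 months for 4 and at 9 months for 2. The lowest fell at 3 months for 19 genes, at 6 months for 10, at 12 months for 5, at 9 months for 4 and at 23 months for 1, Rpl7l1. The mean was higher at each of the 4 steps for 7 genes, Rps3a among them. In limma's F-test over the 5 ages 0 of 39 genes passed (1.88% of all genes did), and 9 had an unadjusted p under 0.05, or 23.1% against 9.24% of all genes. A plain analysis of variance also gave 9 at an unadjusted p of at most 0.05 (9.35% of all genes).

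A fit of a straight line in months, in which each of the 49 animals contributes, called 7 of the 39 genes. They were Rps3a, Rpl27, Rps24, Rpl7, Rpl12, Rpl34 and Rpl23, the last named after its values were seen. All 7 rose, where 3.47% of all genes were called rising. The line was fitted with the main settings only, so how far these calls depend on the processing was not tested. The gene of smallest p, Rps3a, rose by 0.0070 per month, or 0.14 over the 20 months from the youngest to the oldest group (limma adjusted p = 0.0096). The slope was positive for 38 of 39 genes and had an unadjusted p under 0.05 for 24, where 1390 of all 8093 genes did.

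**Figure D3:**
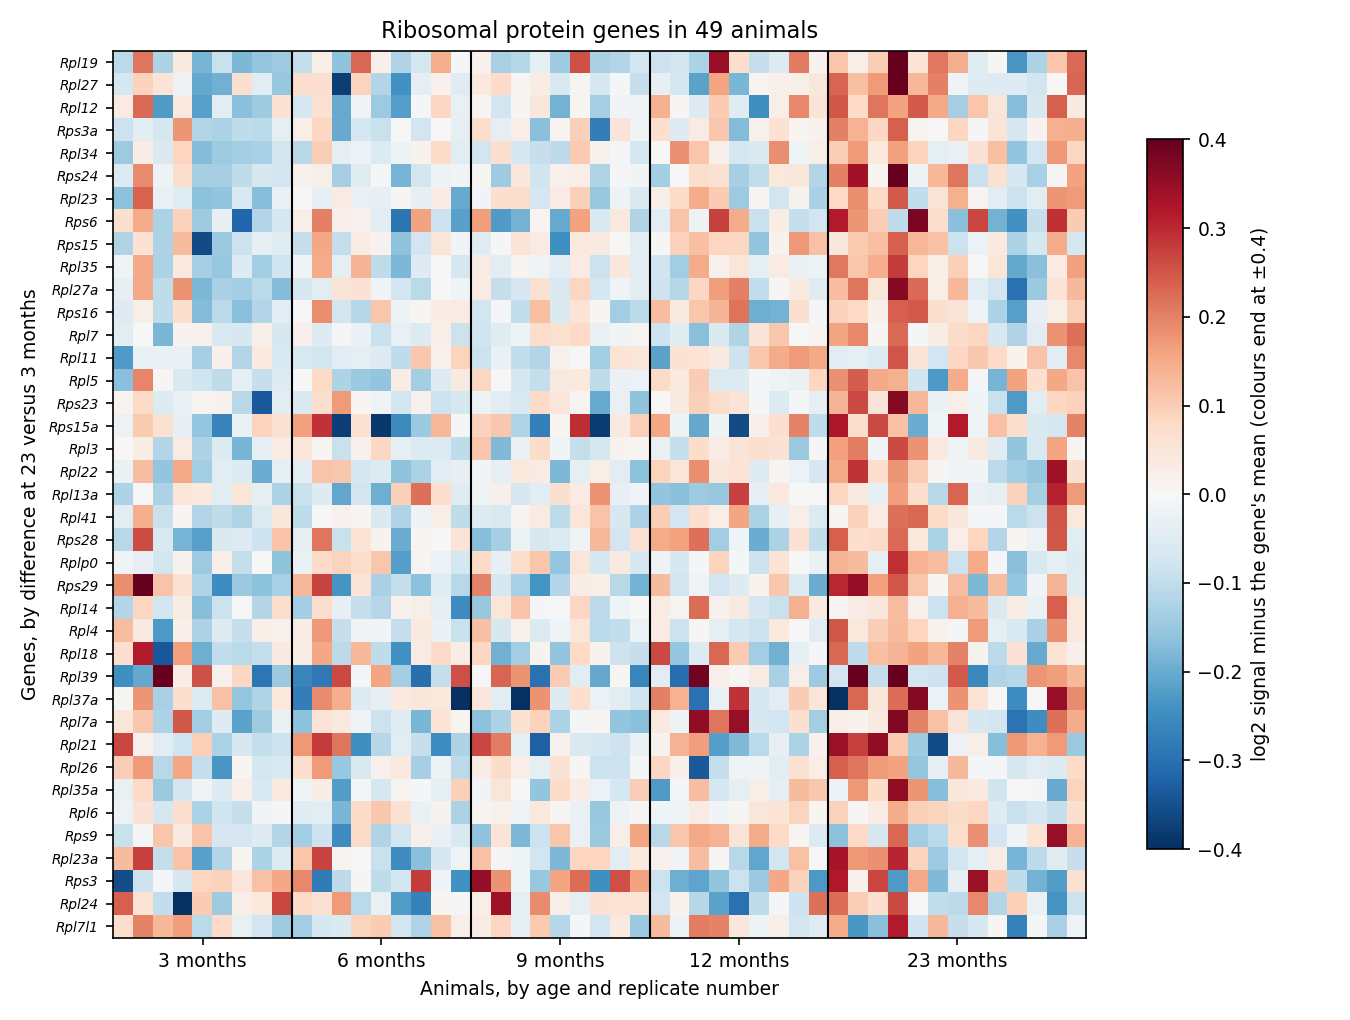
Level of each of the 39 ribosomal protein genes (rows) in each of the 49 animals (columns, ordered by age and then replicate number), as log2 signal minus the gene's mean over all arrays (colour). Values are mixed at every age, higher at 23 months for most genes, and the oldest animals include replicate 5, high for 37 of 39 genes, and replicate 11, low for most.

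The levels of the genes tended to vary together from animal to animal. The mean level of an animal over the 39 genes, each centred on its own mean, was −0.037 ± 0.067 (SD, n = 9) at 3 months, −0.029 ± 0.047 at 6, −0.019 ± 0.035 at 9, 0.0037 ± 0.029 at 12 and 0.056 ± 0.089 (SD, n = 13) at 23 months. At 3 months it ran from −0.10 to 0.10 around a median of −0.065, and at 23 months from −0.096 to 0.23 around a median of 0.076. The old group thus held the third lowest animal and the highest 3 of all 49.

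The old animal at 0.23 (replicate 5) was above the mean of the gene for 37 of 39 genes, and the old animal at −0.096 (replicate 11) for 9. Replicate 5 is also 1 of the 2 arrays of high haemoglobin signal, and replicate 11 has the highest signal of transthyretin. The part of blood or choroid plexus in these levels was not tested. Without the 2 arrays of high haemoglobin the median difference at 23 months was 0.084 with 38 of 39 genes higher, and without the 5 of high transthyretin it was 0.092 with 36 of 39 higher. In either case 0 of the 39 genes passed in limma, and 15 and 16 were higher at an unadjusted p under 0.05. Of all 8093 genes 222 passed without the arrays of high haemoglobin and 173 without those of high transthyretin, against 264 with all arrays. The share of all genes at the unadjusted cut was not taken in these fits.

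**Figure D4:**
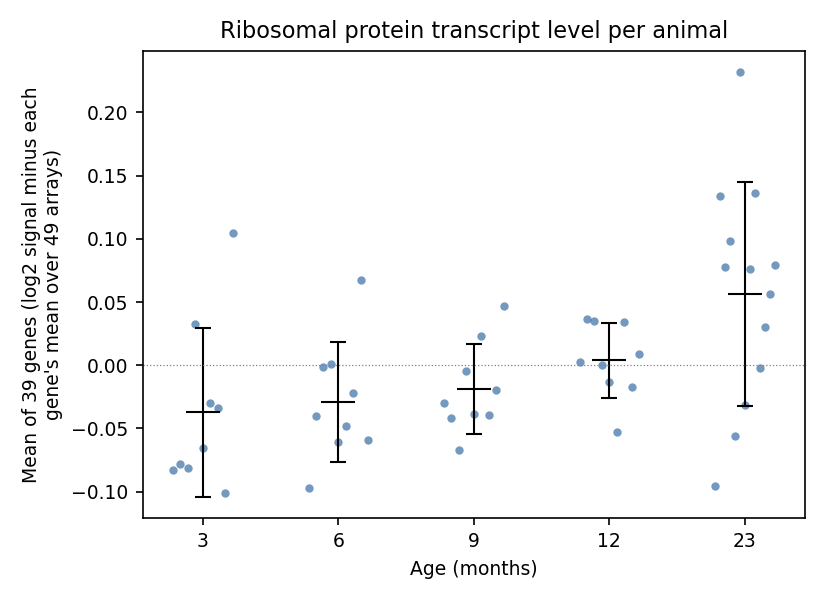
Mean level of the 39 ribosomal protein genes in each animal (points; log2 signal minus each gene's mean over 49 arrays) by age in months, with the mean and SD of each age. The 23-month animals run from −0.096 to 0.23 and 9 of 13 are above 0, against 2 of 9 at 3 months.

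Within ages, with the age means removed, the 741 pairs of ribosomal protein genes had a median correlation over the 49 arrays of 0.25 (quartiles 0.068 and 0.42), and 83.0% of pairs were above 0. Pairs of the other genes among the brightest 10% had a median of 0.030, and pairs of all genes 0.0014. The pairs share arrays, scaling and animals, so these values describe the libraries and carry no test. Rpl35, Rpl27a, Rpl22 and Rpl23a were most like the rest of the family, with median correlations of 0.48, 0.44, 0.42 and 0.42. Rps3 and Rpl24 were least like it, at −0.018 and −0.0042, followed by Rpl21 at 0.051 and Rpl11 at 0.061. Animals of the same age differed about as much for a ribosomal gene, with a median SD of 0.12, as for another bright gene, also 0.12.

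Another 34 probe sets carry a ribosomal symbol among several symbols, as close copies and pseudogenes share their sequence, and they were left out of the family. Of these, 31 were higher at 23 than at 3 months, by a median of 0.089 (range −0.078 to 0.19). In a fit of 9777 probe sets 2 of them rose past the threshold, where 2.25% of all probe sets did. Signals of near-identical copies cannot be told apart on these probes, and the same holds in part for probe sets of 1 symbol.

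Genes with and without the start motif were compared by their medians. The 11 genes whose run begins at the annotated start had a median difference of 0.10 at 23 months (0.062 to 0.16). The 14 with a run that begins elsewhere within 10 bases had 0.11 (−0.067 to 0.14). The 10 in which no run begins there had 0.077 (0.016 to 0.12). No test was made of these subsets.

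Other lists of the translation apparatus had medians between −0.034 and 0.063. Of 71 mitochondrial ribosomal protein genes, which build the separate ribosome of the mitochondrion, 21 were higher and 50 lower at 23 months, with a median of −0.034, and 0 passed in limma while 0 higher and 4 lower had an unadjusted p under 0.05. The smallest p-values were those of Mrpl12, which went from a signal of 898 ± 75.8 to 815 ± 53.7 (log2 difference −0.14, adjusted p = 0.095), and Mrps27, from 218 ± 20.8 to 184 ± 40.5 (−0.27, adjusted p = 0.133).

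Of 36 measured translation initiation factors, 13 were higher, with a median of −0.026, and 0 passed in limma (0 higher and 4 lower at an unadjusted p under 0.05). Eif4e, which binds the cap of messenger RNAs, went from 2320 ± 119 to 2124 ± 137 (log2 difference −0.13, adjusted p = 0.105), and Eif1b differed by −0.11 (adjusted p = 0.123). Of 11 elongation and termination factors, 8 were higher, with a median of 0.063, and 0 passed in limma (2 higher and 0 lower at an unadjusted p under 0.05). Their members of smallest p, Eef1a1, which brings transfer RNAs to the ribosome, and Eef1g, of the complex that reloads it, differed by 0.19 (adjusted p = 0.076) and 0.10 (adjusted p = 0.302). Both are known to carry the same start motif as the ribosomal protein genes.

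Of 36 ribosome biogenesis genes, 15 were higher, with a median of −0.020, and 0 passed in limma (4 higher and 1 lower at an unadjusted p under 0.05). Polr1e, a subunit of RNA polymerase I, and Dkc1, which modifies ribosomal RNA, had the smallest p-values, with log2 differences of 0.28 and 0.30 (adjusted p = 0.161 and 0.233). Of 16 genes of the TOR and S6 kinase pathway, 8 were higher and 8 lower, with a median of 0.0012, and 0 passed in limma (1 higher and 0 lower at an unadjusted p under 0.05). The TOR inhibitor Tsc1 differed by 0.13 (adjusted p = 0.296) and the TOR activator Rheb by −0.10 (adjusted p = 0.382). Rpsa, a small subunit protein whose symbol falls outside the naming rule, differed by 0.095 (adjusted p = 0.250), and Rack1, a scaffold on the small subunit, by 0.0039 (adjusted p = 0.988).

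**Figure D5:**
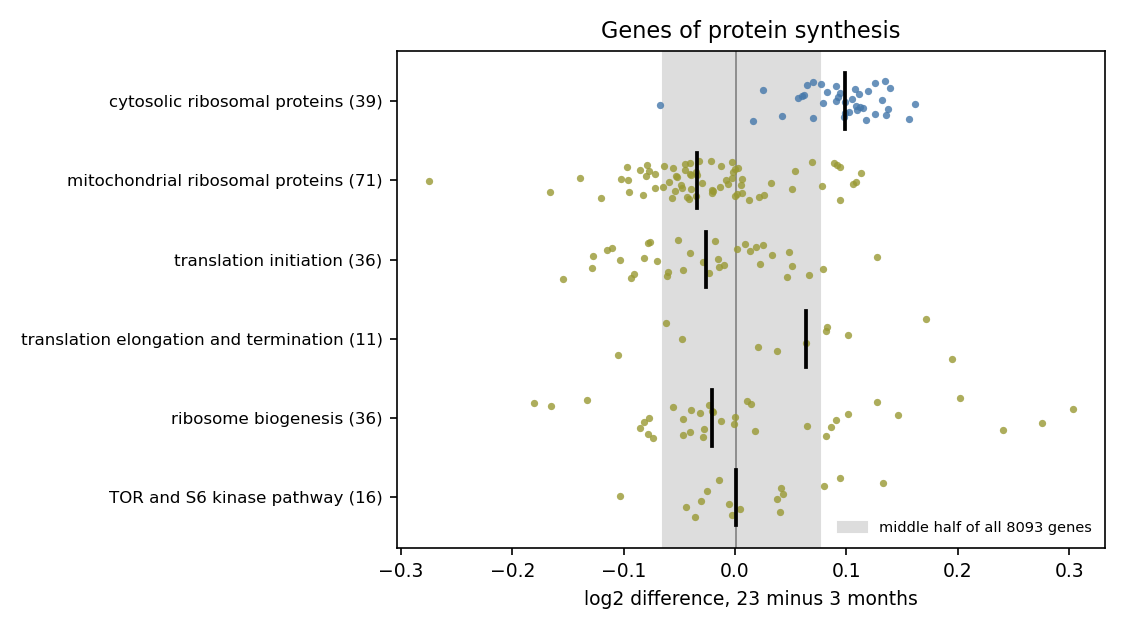
Log2 difference between 23 and 3 months for each gene (points) of the 39 ribosomal protein genes and of the lists of mitochondrial ribosomal proteins, initiation, elongation and termination, ribosome biogenesis and the TOR pathway, with the median of each list and a grey band between the quartiles of all genes tested. The cytosolic ribosomal proteins have a median of 0.099 and the mitochondrial ones of −0.034.

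Cell type markers moved between the same ages. CA1 pyramidal cell markers were measured for 7 of 8 genes, with summed signals of 14347 to 18419 at 3 months and 13196 to 17636 at 23 months, and 1 fell. Of 13 microglial markers 11 rose, with a median log2 difference of 0.55, and their summed signal went from 8041 to 9407 at 3 months up to 10461 to 17416 at 23 months with no overlap. Astrocyte markers rose for 4 of 10 genes (median 0.095, sums of 42309 to 50083 against 44515 to 57433). Of 12 general neuronal markers 1 fell and of 6 endothelial markers 1 rose. The summed signal of 6 choroid plexus markers ran from 1388 to 16479 at 3 months and from 1502 to 25934 at 23 months, with high transthyretin on 4 of 9 and 1 of 13 arrays. The part of these cells in the ribosomal difference was not tested.

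A sign of RNA degradation also had higher means at 23 than at 3 months, a difference that was not tested. The signal ratio of 3′ over 5′ probes, on the log2 scale, was 0.26 ± 0.065 at 3 months and 0.31 ± 0.078 at 23 months for GAPDH, and 0.82 ± 0.13 and 0.93 ± 0.15 for actin. With both ratios as covariates the median difference of the 39 genes was 0.078, 36 were higher and 10 had an unadjusted p under 0.05. The share of all genes at that unadjusted cut was not taken in this fit. Rpl11 was the 1 gene of the 39 to pass, in place of Rpl34, where 255 of all 8093 genes passed.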

How the data were processed

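The authors deposited linear microarray intensities, made with MAS5 (per the submitters' processing notes, with the version not given in the sources used here) and, per the design text, scaled to a target of 500. Array medians lay between 208 and 224.9. Presence calls, scan dates and behaviour scores were not used, and no batch could be tested. Precision is limited by how many arrays each age has.

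Of 15923 probe sets, 12789 had 1 gene symbol in the platform annotation, 312 had several and 2822 were not listed. Entrez IDs were looked up in RefSeq's GRCr8 gene table, used for names only, which changed 0 symbols of ribosomal protein genes. Signals under 16 were set to 16 (0.047% of tested values) and log2 was taken, with no further scaling. Among the 1176 array pairs none held the same values (SD of their log2 differences 0.24 or more). Fold changes are on this scale.

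Tests used limma 3.58.1 in R 4.3.3 (lmFit, then eBayes with trend) on 8093 genes and 49 arrays together, with a mean per age. The F-test and the contrasts were adjusted by the Benjamini-Hochberg method over all genes, with 0.05 as the threshold of a call. This fit was also tested on simulated data with known changes. Genes were named by rule: the 8 of smallest p in the F-test, the 6 largest and 4 lowest differences at 23 months, the extremes of each other contrast, genes set by role, and 2 of each list. The genes and lists were chosen with earlier results of these data known. Alternatives covered the floor, the filter, 2 normalizations, the variance model, array weights, covariates, the replicate number as a block, arrays left out and further probe sets.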

Additional observations from a re-analysis of the deposited data

Results flagged for a closer look

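Single animals stood far from the rest of their age for 6 of the 84 combinations of a named gene and an age that were examined, measured by the gap to the nearest other animal over the whole range. Chance alone marks about 1 in 20 such groups. At 3 months, Rps3a was at 8357.6 in replicate 4, where the other young animals lay between 6770.6 and 7212.6. In the same age Rpl7 was at 5750.1 in replicate 3, with the others between 6243.3 and 6632.1, and Rpl5 was at 8096.9 in replicate 2, with the others between 6305.3 and 7096.2. At 9 months, Rps15 was at 4868.5 in replicate 5 (others 5584.7 to 5990.0), Rpl19 at 11311.7 in replicate 6 (others 8569.9 to 9559.7) and Rpl37a at 9752.4 in replicate 3 (others 15476.5 to 18526.5).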

How the results depend on the processing

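The median difference at 23 against 3 months stayed above 0 in all alternatives run, from 0.070 (quantile normalization) to 0.14 (replicate block), and from 0.085 to 0.12 with 1 array left out. The count of ribosomal protein genes called there, 1, was not stable. It was 0 with quantile normalization, median centring, no variance trend, a fit of the 2 ages alone, and without the arrays of high transthyretin or of high haemoglobin, 3 with array weights, and 0 to 4 with 1 array left out. With the replicate number as a block it was 15. In that fit 5 of the 13 old animals (replicates 10, 11, 13, 14 and 15) have numbers found at no other age. They add nothing to the age difference, which then rests on the other 8 old animals. Their mean levels over the 39 genes were −0.031, −0.096, −0.056, 0.099 and 0.079. With these 5 left out and no replicate block, an alternative chosen after seeing the data, the count was 10 and the median difference 0.13. Of all 8093 genes, 264 were called in the main fit, 310 with array weights, 269 with the block and 226 in that alternative without it. Quantile normalization called 250 of all genes, median centring 247 and the fit without a variance trend 257. Without the arrays of high transthyretin 173 were called, and without those of high haemoglobin 222. Same-numbered animals of 3 and 23 months correlated between −0.057 and 0.20, and 3 of 8 did so best with their own number. With so few pairs of 2 ages these values cannot decide whether a number marks a shared batch, which was not tested. Over the 5 ages, 0 genes passed the F-test, 9 had an unadjusted p of at most 0.05 in a plain analysis of variance (9.35% of all genes did) and the straight line called 7. That line was fitted with the main settings only. Differences of single genes changed sign: Rps3 to −0.020 and Rpl37a to −0.010 with quantile normalization, Rpl24 to −0.0027 with median centring and −0.098 without the arrays of high transthyretin, Rpl23a to −0.0015 and Rpl37a to −0.0016 with the degradation ratios. With 1 array left out Rps3 ran from −0.019 to 0.046 and Rpl24 from −0.041 to 0.049. The cause was not tested.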
